A study of Arabidopsis thaliana with 36 samples.

Results

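The change across dawn in old leaves was taken as the level at ZT1 minus the level at ZT21 in rosette leaves sampled 35 days after sowing (DAS). ZT counts hours from lights on, so ZT21 fell in the dark and ZT1 was 1 h into the light. It rests on 6 of the 36 RNA sequencing libraries of the study, 3 for each time, which were picked by their labels alone. All leaves came from Arabidopsis thaliana of genotype Col-0, and no other allele or agent is named in the labels. Plants had 16 h of light and 8 h of dark a day at 22 °C under white light of 100 µmol. The other libraries cover 4 more times at 35 DAS and all 6 times at 21 DAS, each with 3 libraries of polyadenylated RNA. The ZT1 and ZT21 libraries of 21 DAS leaves, grown the same way, served as the younger comparison.

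Samples are labelled as the third and the fourth rosette leaf, while the series text speaks of the third leaf. The libraries of a group are numbered as batches 1 to 3 in the titles and are called biological replicates in the series text. Nothing says whether leaves were pooled, or whether ZT1 was collected before or after the night of ZT21, so the change compares 2 times of day rather than leaves followed through 1 dawn. The p-values measure the spread between these libraries, which may be partly technical.

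The plant clock is a set of transcription factors that repress each other in turn through the day. CCA1 and LHY peak around dawn and hold down evening genes, the PRR proteins act in sequence through the day, and the evening complex of ELF3, ELF4 and LUX acts around dusk and at night. Light after dawn also acts directly, through photoreceptors and factors such as HY5, on genes of photoprotection and of the light-harvesting antenna. At night leaves live on stored starch, and genes of carbon starvation are known to be raised in the dark and lowered by light and sugar.

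The depth of a library is not stated in the table. Summed FPKM, the fragments mapped to a transcript scaled by its length and by library size, ran from 832879 to 879266 in the ZT1 libraries and from 829518 to 883077 in the ZT21 libraries of 35 DAS. Libraries of 35 DAS departed further from their group means than those of 21 DAS. The SD of these deviations on the log2 scale was between 0.264 and 0.381 at ZT1 and between 0.259 and 0.300 at ZT21, and it was highest in ZT1 library 1. At 21 DAS it was between 0.181 and 0.247. Antenna genes, which mark green leaf tissue, summed to at least 4304 FPKM in every library of the comparison. The 5 flower markers together summed to between 1.33 and 2.89 FPKM at ZT1 and between 0.977 and 2.36 FPKM at ZT21. AP1, 1 of them, was listed at 0 in all 6. In whole leaves, fewer cells of a type and less RNA per cell cannot be told apart.

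Between ZT21 and ZT1, 6285 of 18729 tested genes changed at 35 DAS, which is 33.6%. A gene was called when its adjusted p was under 0.05 (limma on log2(FPKM + 1), Benjamini-Hochberg over all tested genes). There were 1517 genes higher at ZT1 (8.1%) and 4768 lower (25.5%). The median change of all genes was −0.25 on the log2 scale, so most small calls were toward lower values. When libraries were rescaled by the median of ratios, which sets that median at 0, there were 2664 higher genes (14.2%) and 1784 lower genes (9.53%). Rescaling moved the higher share of called genes from 24.1% to 59.9%. It kept 1515 of the 1517 higher calls and ended 2984 of the lower calls. Changes of a log2 unit or more, which is 2-fold, were reached by 700 higher genes (3.74%) and 1029 lower genes (5.49%).

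**Figure D1:**
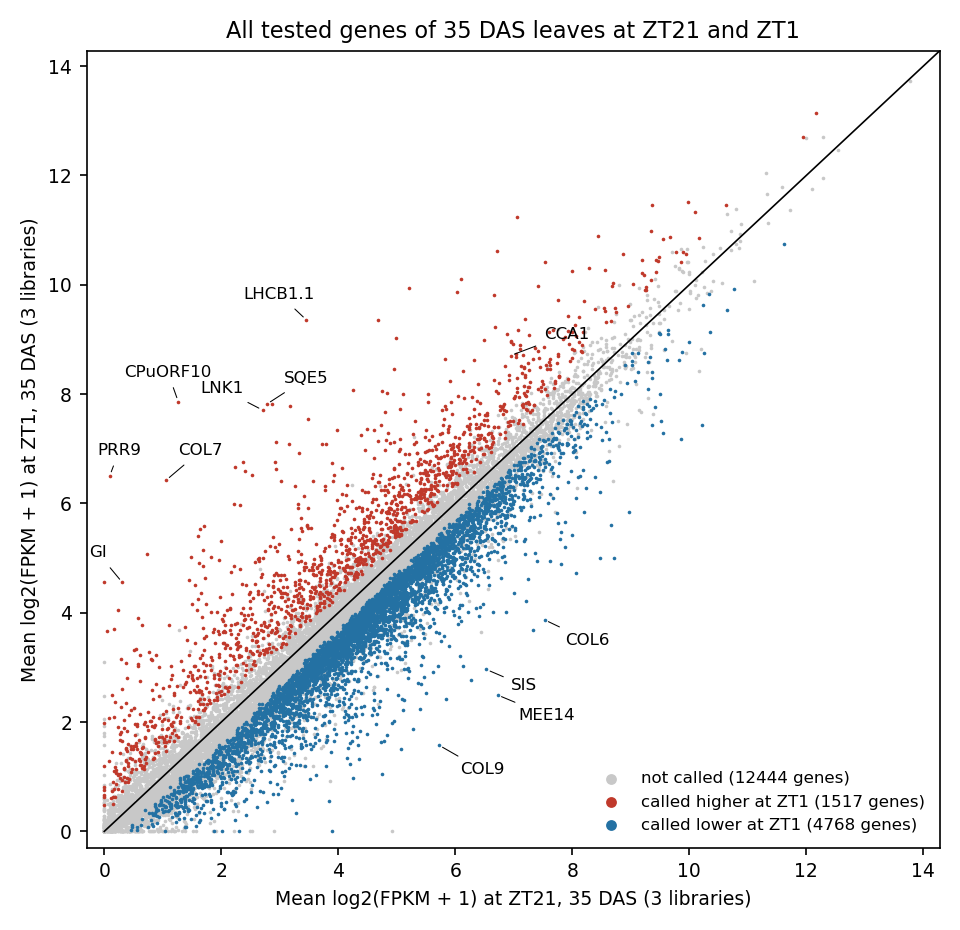
Mean log2(FPKM + 1) of the 3 ZT21 libraries (x axis) and the 3 ZT1 libraries (y axis) of 35 DAS leaves for each of the 18729 tested genes, with the line of equal levels. The 1517 red genes were called higher at ZT1 and include PRR9 and LHCB1.1 at the upper left, and the 4768 blue genes were called lower and include COL9 and MEE14 at the lower right.

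The higher genes took up more of the transcriptome after dawn. The 700 genes that rose by a log2 unit or more held between 3.25% and 4.14% of summed FPKM in the ZT21 libraries and between 10.5% and 13.4% in the ZT1 libraries. The 1029 that fell by as much went from between 6.66% and 7.67% to between 2.33% and 2.85%. These genes were chosen by the change itself, so the shares describe them and test nothing. Across the 6 times of day at 35 DAS, 81.4% of the 700 risers had their highest mean at ZT1 and 11.4% at ZT5, where 14.1% of all tested genes had it at ZT1. Of the 1029 fallers, 48.9% had their highest mean at ZT21, 21.9% at ZT17 and 15.2% at ZT9, against 28.9% at ZT21 among all tested genes. Choosing genes by the change favours a peak at ZT1 in risers and at ZT21 in fallers, so these peak times also test nothing.

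The 12 called genes with the highest changes held clock genes and antenna genes, and also SAMDC2 of polyamine synthesis and SQE5 of the squalene epoxidase family. PRR9, a pseudo-response regulator that represses CCA1 and LHY in the morning, stood at 0.136, 0.0729 and 0 FPKM in the 3 ZT21 libraries and at 96.9, 117 and 63.9 FPKM at ZT1. It was near 0 before dawn in each library, and the change was 6.41 ± 0.57 (SE) on the log2(FPKM + 1) scale (adjusted p = 2.49e-06). The added 1 compresses changes of genes near 0, so such a value depends on it. LNK1, a coactivator of the RVE8 factor, went from 6.91, 2.05 and 10.5 FPKM to 206, 236 and 185 FPKM, a log2 change of 5.00 ± 0.42 (adjusted p = 1.63e-06).

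COL7, one of the CONSTANS-like B-box proteins, was at 1.49, 0.872 and 0.937 FPKM at ZT21 and at 85.6, 89.0 and 80.3 FPKM at ZT1. Its 3 libraries at each time lay close together, and the log2 change was 5.37 ± 0.32 (adjusted p = 9.43e-08). SAMDC2, an S-adenosylmethionine decarboxylase of polyamine synthesis, rose from 33.4, 31.8 and 43.3 FPKM to 1124, 1049 and 816 FPKM, a log2 change of 4.75 ± 0.22 (adjusted p = 9.86e-09). CPuORF10 is the conserved upstream reading frame of the same transcript, and its rise from 2.88, 0.968 and 0.816 FPKM to 190.3, 419 and 156 FPKM cannot be separated from that of SAMDC2, whose locus it overlaps. SQE5, a member of the squalene epoxidase family, which makes sterol precursors, was at 3.02, 12.9 and 4.81 FPKM and then at 202, 290.1 and 193 FPKM, with a log2 change of 5.04 ± 0.36. ZT21 library 2 was the highest of its group and still lay far below every ZT1 library.

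BT1, a BTB and TAZ domain scaffold protein, rose from 2.94, 10.4 and 7.67 FPKM to 171, 296 and 223 FPKM (log2 change 4.95 ± 0.37). AT2G27420, annotated as a cysteine proteinase, was listed at 0 in the ZT21 libraries and stood at 17.0, 16.0 and 42.0 FPKM at ZT1. AT2G16367, a transcribed pseudogene, was at 1.60, 39.8 and 0 FPKM at ZT21 and at 81.6, 114 and 108 FPKM at ZT1. Its ZT21 libraries disagreed with each other, and its SE of 1.00 was the largest among the 12 risers. Its call was lost with the spread of the 6 libraries alone (adjusted p = 0.0571). The other 3 of the 12 were the antenna genes LHCB1.1, LHCB1.2 and LHCB2.2, given with their family below.

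The 12 called genes with the lowest changes included 2 CONSTANS-like genes and genes annotated as stress-induced or dormancy-associated. MEE14, named after an embryo arrest mutant, was at 95.5, 107 and 113 FPKM at ZT21 and at 4.17, 4.58 and 5.22 FPKM at ZT1. COL9, a CONSTANS-like protein that delays flowering by lowering CO, fell from 42.1, 64.3 and 51.1 FPKM to 2.02, 2.47 and 1.54 FPKM. Both groups of 3 libraries were tight in these genes, with log2 changes of −4.23 ± 0.19 for MEE14 and −4.14 ± 0.27 for COL9 (adjusted p = 9.86e-09 and 1.58e-07).

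COL6, also a CONSTANS-like protein, fell from 169.9, 219.5 and 166 FPKM to 12.2, 10.2 and 20.2 FPKM. The CONSTANS-like genes named here thus moved in opposite directions, COL7 up and COL6 and COL9 down. AT2G33830, a dormancy and auxin associated gene, fell from 132, 154 and 197 FPKM to 9.54, 16.0 and 10.7 FPKM (log2 change −3.64 ± 0.43). AT2G15960, annotated as a stress-induced protein, fell from 408, 342 and 531 FPKM to 26.3, 39.0 and 29.5 FPKM. PAE8, a pectin acetylesterase that acts on cell wall pectin, fell from 314, 284 and 490.4 FPKM to 24.8, 28.4 and 42.9 FPKM. In all 4 the lowest ZT21 library lay several-fold above the highest ZT1 library.

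SIS, a salt-induced serine-rich protein, stood at 55.3, 64.2 and 214 FPKM at ZT21, with library 3 far above the others, and at 6.67, 5.63 and 8.33 FPKM at ZT1. OXS3, named for oxidative stress, fell from 65.4, 66.8 and 99.8 FPKM to 6.44, 4.23 and 7.08 FPKM, and its locus overlaps AT5G56544. AT3G15630 and AT3G47160, the second annotated as a RING/U-box protein, fell by 3.56 and 3.42 on the log2 scale. AT3G49551, a short reading frame that overlaps AT3G49550, was listed at 0 in every ZT1 library and at 12.6, 14.3 and 14.9 FPKM at ZT21. AT2G44240 was at 25.3, 10.4 and 62.7 FPKM and then at 4.64, 0.468 and 0.0761 FPKM, and its call was weak (log2 change −3.69 ± 1.35, adjusted p = 0.0471). It was lost without ZT1 library 2 or 3 or ZT21 library 1 or 3, with adjusted p between 0.102 and 0.157, after rescaling (adjusted p = 0.0756), with a pseudocount of 0.1 (0.0624) and with no filter on low values (0.0772).

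Promoters of the leading genes are shown because dawn and evening clock factors act through short DNA elements close to gene starts. The 250 bases before the annotated gene start were read 5′ to 3′ along the gene's strand from the RefSeq TAIR10.1 genome for the 3 highest and 3 lowest named genes that have one, and for CCA1 and LHY. Capitals mark any match, on either strand, to AAAATATCT (evening element), AAAAATCT (CCA1-binding site), CACGTG (G-box, which reads the same on both strands), AAACCCTA (telo box) or TGGGCC (site II). The 5 with a match are printed.
PRR9, chr2:19232357-19232606 (plus strand): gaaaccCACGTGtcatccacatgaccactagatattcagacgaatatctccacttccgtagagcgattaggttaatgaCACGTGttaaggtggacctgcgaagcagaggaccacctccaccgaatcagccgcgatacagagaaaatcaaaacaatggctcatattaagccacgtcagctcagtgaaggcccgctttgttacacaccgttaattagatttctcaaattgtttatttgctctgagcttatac
LHCB1.1, chr1:10475970-10476219 (minus strand): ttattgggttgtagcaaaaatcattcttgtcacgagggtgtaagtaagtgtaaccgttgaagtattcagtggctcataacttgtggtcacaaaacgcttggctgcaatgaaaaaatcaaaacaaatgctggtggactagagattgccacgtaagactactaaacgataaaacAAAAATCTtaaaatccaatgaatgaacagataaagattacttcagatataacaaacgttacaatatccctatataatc
CCA1, chr2:19245341-19245590 (plus strand): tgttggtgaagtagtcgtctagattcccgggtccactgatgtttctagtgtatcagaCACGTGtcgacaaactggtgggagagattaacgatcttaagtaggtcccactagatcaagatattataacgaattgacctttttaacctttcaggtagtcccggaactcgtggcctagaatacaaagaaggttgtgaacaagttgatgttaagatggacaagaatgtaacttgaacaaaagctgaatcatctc
LHY, chr1:37872-38121 (minus strand): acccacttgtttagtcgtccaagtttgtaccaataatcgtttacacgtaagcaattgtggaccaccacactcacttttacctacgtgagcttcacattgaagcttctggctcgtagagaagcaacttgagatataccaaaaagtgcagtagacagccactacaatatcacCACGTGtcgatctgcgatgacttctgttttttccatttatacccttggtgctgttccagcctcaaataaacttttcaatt
MEE14, chr2:6922162-6922411 (minus strand): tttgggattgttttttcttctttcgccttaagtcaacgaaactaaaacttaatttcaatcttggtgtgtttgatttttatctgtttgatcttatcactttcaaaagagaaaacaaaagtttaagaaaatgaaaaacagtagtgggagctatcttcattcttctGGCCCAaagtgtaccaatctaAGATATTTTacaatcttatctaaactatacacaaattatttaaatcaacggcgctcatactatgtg

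PRR9 held 2 G-boxes, ending 239 and 167 bases before the start, and CCA1 and LHY held 1 each, at 188 and 75 bases. LHCB1.1 held a CCA1-binding site 71 bases before the start. MEE14, which fell, held on the opposite strand an evening element at 58 bases and a site II element at 82 bases. COL7, COL9 and AT3G49551 held none of these letters in this window. A match describes letters, not a bound site.

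Over all 18675 tested genes with a promoter, 7.36% held a G-box and 2.60% an evening element. Among the 698 such genes that rose by a log2 unit or more, 13.5% held a G-box and 3.15% an evening element. Among the 1025 that fell as much, 7.32% held a G-box and 5.37% an evening element. Telo boxes were in 3.60% of all promoters, 0.860% of the risers' and 2.83% of the fallers', and site II elements in 17.0%, 10.3% and 11.3%. CCA1-binding sites differed little, at 6.82%, 7.59% and 6.93%. Of the 16 morning clock genes, 9 held a G-box (CCA1, LHY, RVE1, RVE2, RVE3, RVE5, LNK3, PRR9 and PRR7), and of the 13 evening clock genes 5 held an evening element (PRR5, TOC1, LUX, BOA and FKF1).

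Of the 16 morning clock genes, 12 rose and 2 fell across dawn at 35 DAS, with a median log2 change of 1.60 against −0.25 over all genes. Over all tested genes 8.1% rose and 25.5% fell. CCA1 was already at 122, 104 and 143 FPKM in the dark and reached 401, 485 and 370.0 FPKM at ZT1. Its log2 change was 1.76 ± 0.46 (adjusted p = 0.00915). LHY, its partner, had 222, 196 and 226 FPKM at ZT21 and 600.1, 707 and 476 FPKM at ZT1, and the groups did not overlap, as in 45.0% of all tested genes. It was not called, with a log2 difference of 1.45 ± 0.57 and adjusted p = 0.0628. Its SE takes in all 6 times of 35 DAS. With the spread of the 6 libraries alone, the adjusted p was 0.00481, and over the alternatives it ran from 0.00472 to 0.157.

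RVE8, which activates evening genes together with the LNK proteins, was at 98.7, 89.9 and 104 FPKM and then at 143, 173 and 132 FPKM, a small rise (log2 change 0.60 ± 0.18, adjusted p = 0.0202). That call was lost without ZT1 library 2 or ZT21 library 1 or 2, with adjusted p up to 0.0863, and with the transcript of the highest mean alone (0.142). The coactivators LNK2, LNK3 and LNK4 rose by 2.34, 3.82 and 4.07 on the log2 scale, and in each of them ZT21 library 2 was the lowest. LNK2, for example, was at 65.7, 31.1 and 100.2 FPKM and then at 264, 355 and 297 FPKM. PRR7, which follows PRR9 as a repressor, rose from 2.56, 0.613 and 2.87 FPKM to 31.8, 33.1 and 29.5 FPKM (log2 change 3.53 ± 0.28).

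The RVE genes, relatives of CCA1 and LHY, did not move as 1 group. RVE3 rose from 6.45, 6.39 and 6.79 FPKM to 119, 158 and 65.6 FPKM, and RVE5, RVE6 and RVE7 rose by between 0.73 and 1.32 on the log2 scale, the call of RVE6 being lost with the transcript of the highest mean alone (adjusted p = 0.0824). RVE2, also known as CIRCADIAN 1, fell from 202, 393 and 240.3 FPKM to 28.0, 27.4 and 21.7 FPKM, a log2 change of −3.34 ± 0.30 (adjusted p = 2.64e-06). RVE4 fell from 259, 330.3 and 325 FPKM to 129, 185 and 165 FPKM. RVE1, an activator of auxin synthesis genes, was not called, with 34.7, 55.6 and 57.1 FPKM at ZT21 and 60.7, 67.4 and 63.2 FPKM at ZT1.

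**Figure D2:**
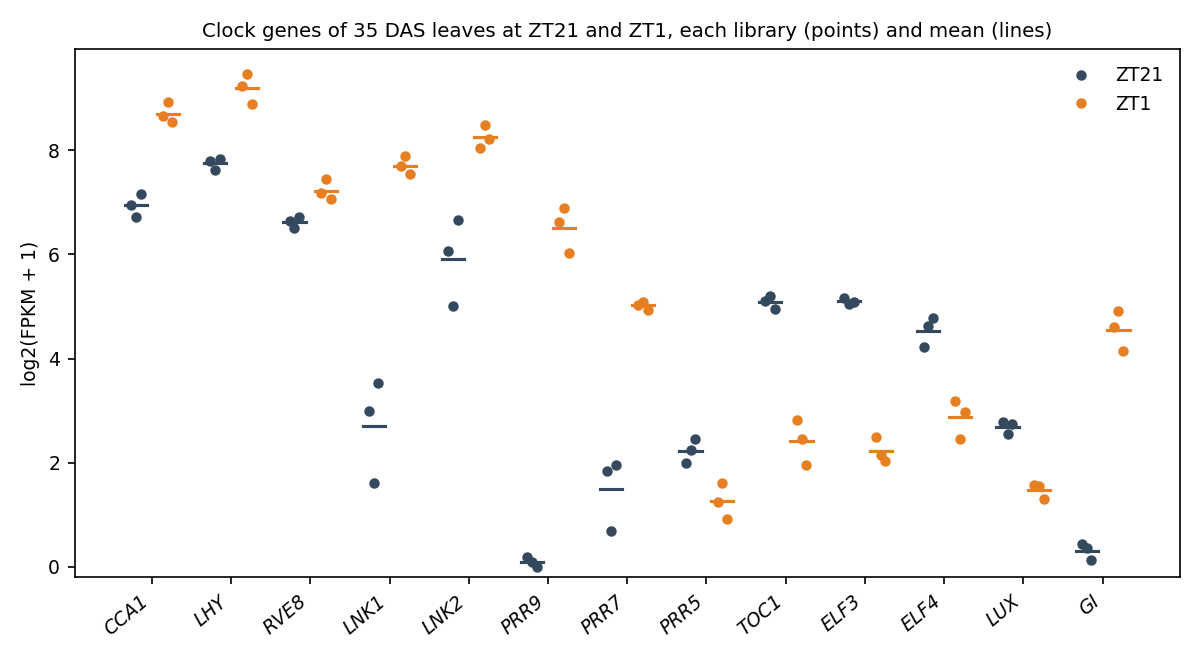
log2(FPKM + 1) of 13 clock genes in the 3 ZT21 and the 3 ZT1 libraries of 35 DAS, with points for libraries and lines for means. PRR9 and GI climb from near the bottom of the scale and LNK1 from its lower part, LHY and CCA1 start high, and TOC1, ELF3, ELF4 and LUX lie lower at ZT1.

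Of the 13 evening clock genes, 9 fell and 1 rose (25.5% and 8.1% over all tested genes), with a median of −1.22. TOC1, the evening regulator that represses CCA1 and LHY, fell from 33.3, 35.7 and 30.1 FPKM to 6.10, 4.50 and 2.88 FPKM (log2 change −2.67 ± 0.21, adjusted p = 8.37e-07). ELF3, the scaffold of the evening complex, fell from 34.6, 32.2 and 33.1 FPKM to 4.64, 3.45 and 3.09 FPKM. All ZT1 libraries of both genes lay under the lowest ZT21 library.

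ELF4 fell by 1.67, LUX by 1.22 and its relative BOA by 2.23 on the log2 scale, so all 4 named genes of the evening complex were lower after dawn. JMJD5, a jumonji histone demethylase with a role in clock period, fell from 15.0, 24.3 and 16.1 FPKM to 1.37, 1.32 and 0.386 FPKM. PRR5, PRR3 and FKF1 also fell, each from a low level: FKF1, a blue light receptor of the flowering pathway, was at 1.00, 1.47 and 1.57 FPKM and then at 0.106, 0.113 and 0.146 FPKM. LUX and PRR3 lost their calls when the transcript with the highest mean was used alone (adjusted p = 0.204 and 0.235), and LUX and FKF1 with a pseudocount of 5 (0.0719 and 0.1296).

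GI, a large protein that works with FKF1 and ZTL, was the evening gene that rose, from 0.349, 0.285 and 0.0958 FPKM to 23.4, 29.1 and 16.7 FPKM (log2 change 4.25 ± 0.27, adjusted p = 1.58e-07). Its highest mean of the day, 91.2 FPKM, came at ZT9. ZTL, a relative of FKF1, had 34.9, 33.7 and 41.8 FPKM at ZT21 and 37.8, 47.1 and 43.9 FPKM at ZT1 and was not called, and the groups overlapped. LKP2 and CHE were not called either. After rescaling ZTL was called higher (log2 change 0.51, adjusted p = 0.00536), so 2 evening genes rose in that setting.

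Among clock outputs, CDF genes, whose proteins repress CO, split. CDF3 rose from 25.8, 15.7 and 36.7 FPKM to 126, 161 and 135 FPKM, CDF1 and CDF5 rose by 1.304 and 1.17 on the log2 scale, and CDF2 fell from 49.4, 42.3 and 70.1 FPKM to 25.4, 22.4 and 23.2 FPKM. CO, the photoperiod activator of flowering, fell by 1.57 from a low level. GRP7, an RNA-binding protein of a clock-driven feedback loop, fell from 307, 254 and 284 FPKM to 86.3, 90.0 and 91.2 FPKM. In all, 3 of 12 genes of this list rose and 4 fell, where 8.1% of all tested genes rose and 25.5% fell.

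Most light signalling genes rose: 15 of 22 were higher at ZT1 and 4 lower (8.1% and 25.5% over all tested genes), with a median of 1.75. HY5, the bZIP factor that drives light-induced genes, went from 12.3, 11.9 and 13.8 FPKM to 70.1, 101 and 69.5 FPKM (log2 change 2.55 ± 0.20, adjusted p = 7.99e-07). Its homologue HYH rose by 2.13. Every ZT1 library of HY5 was at least 5-fold above every ZT21 library.

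The B-box genes BBX30 and BBX31, known as microProteins that bind CO, showed the largest rises of this list. BBX30 was at 3.56, 3.85 and 5.35 FPKM and then at 104, 147 and 80.1 FPKM, and BBX31 at 6.92, 8.50 and 4.93 FPKM and then at 138, 162 and 118 FPKM. BBX28 and BBX29 rose by 3.93 and 3.15, BBX24 and BBX25 by 2.02 and 1.88, and BBX20 fell by 2.12 on the log2 scale. SPA1, SPA3 and SPA4, partners of the COP1 ligase that marks HY5 for breakdown, rose by between 0.98 and 1.33. Photoprotection and repair genes rose as well: ELIP2 from 0.486, 0 and 0 FPKM to 3.72, 2.75 and 6.63 FPKM, the photolyase gene PHR1 by 2.32, and RUP2, a repressor of the UV-B receptor, by 1.94. ELIP1 had 37.0, 21.8 and 19.5 FPKM at ZT21 and 59.8, 73.1 and 112 FPKM at ZT1. It was not called (adjusted p = 0.131), and its groups did not overlap, as in 45.0% of all tested genes. ELIP1 was called with the spread of the 6 libraries alone (adjusted p = 0.0187), with that of all 36 (0.0337) and with array weights (0.0395). Of the 12 PIF and shade genes 3 rose and 3 fell (8.1% and 25.5% over all tested genes). Among the higher was PIF7, a shade growth factor, at 3.16, 3.83 and 3.33 FPKM and then at 16.9, 15.5 and 15.4 FPKM. PIF5 rose by 1.43 on the log2 scale. The 3 lower calls came down to 1 without ZT1 library 3 or ZT21 library 1 or 2.

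Antenna genes rose together. Of 21 light-harvesting genes 17 rose and 0 fell (8.1% and 25.5% over all tested genes), with a median log2 change of 1.73. Their summed level was 4304, 5694 and 5486 FPKM in the 3 ZT21 libraries and 12977, 15531 and 26283 FPKM in the 3 ZT1 libraries, with ZT1 library 3 the highest. LHCB1.1, an antenna protein of photosystem II, rose from 9.81, 8.08 and 12.4 FPKM to 473, 599.6 and 991 FPKM (log2 change 5.90 ± 0.52, adjusted p = 2.12e-06). LHCB1.5 rose from 115, 124 and 159 FPKM to 1917, 2270.1 and 3219.8 FPKM. In both genes every ZT1 library was more than 10-fold above every ZT21 library.

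LHCB1.2, LHCB2.1, LHCB2.2 and LHCB3 rose by between 3.91 and 4.68, and LHCB2.3 by 1.73 on the log2 scale. LHCB1.1, LHCB1.2 and LHCB1.3 are near-identical copies, as are LHCB2.1 and LHCB2.2, so reads may have been split between them. LHCB1.3 did not follow its copies, with 1504, 1829 and 1753 FPKM at ZT21 and 1538, 1612 and 3311 FPKM at ZT1. It had an uncalled log2 difference of 0.26 ± 0.42, and its call and its neighbours' should be read as uncertain. The minor antennae LHCB5 and LHCB6 rose by 1.69 and 2.31, and the photosystem I antennae LHCA1, LHCA3 and LHCA4 by 2.25, 2.01 and 2.88. LHCA2, LHCB1.4 and LHCB4.3 were not called. LHCA2 missed narrowly, with 569.8, 769.9 and 714 FPKM and then 824, 999 and 1594 FPKM (adjusted p = 0.0502).

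Pigment and greening genes rose in smaller numbers. In chlorophyll synthesis 5 of 17 rose and 2 fell (8.1% and 25.5% over all tested genes). CHLH, a subunit of magnesium chelatase, rose from 74.4, 86.0 and 87.1 FPKM to 284, 312 and 276 FPKM, and GUN4, its activator, from 25.6, 29.6 and 30.6 FPKM to 110.0, 136 and 168 FPKM. HEMA1, which starts the pathway, and CRD1, a subunit of its cyclase, rose by 1.01 and 1.51 on the log2 scale. PORB, a protochlorophyllide oxidoreductase, went the other way, from 41.7, 56.0 and 47.4 FPKM to 6.03, 7.06 and 6.63 FPKM (log2 change −2.70 ± 0.20). With the batch number as a block, or without any 1 library of the 6 except ZT1 library 1, 1 of the 2 lower calls remained. SIG5, a plastid sigma factor that answers to blue light, rose from 27.1, 29.0 and 36.5 FPKM to 502, 681 and 408 FPKM (log2 change 4.04 ± 0.30, adjusted p = 5.82e-07). CGA1, GNC and GLK1, factors of chloroplast development, rose by 3.17, 1.18 and 1.31. With SIG1 they made up the 5 of 10 greening genes that rose, and 0 fell.

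In photorespiration 4 of 13 genes rose and 0 fell, where 8.1% of all tested genes rose and 25.5% fell. CAT2, the leaf peroxisomal catalase, went from 515, 988 and 567 FPKM to 2651, 3219 and 2614 FPKM, and GLDP2, of the glycine decarboxylase complex, rose by 1.66. The 4 calls came down to 2 without ZT1 library 3, ZT21 library 1 or ZT21 library 3.

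Most genes of carbon starvation fell. Of 17 tested genes of the dark and sugar starvation list 13 were lower at ZT1 and 0 higher, with a median of −1.0003. After rescaling 8 were lower. Of all tested genes 25.5% were lower, or 9.53% after rescaling. DIN10, a raffinose synthase gene induced in the dark, fell from 26.0, 18.7 and 42.9 FPKM to 3.09, 3.21 and 1.26 FPKM (log2 change −3.08 ± 0.48, adjusted p = 0.000263). AKINBETA1, a regulatory subunit of the SnRK1 energy kinase, fell from 37.5, 32.8 and 52.2 FPKM to 6.16, 4.55 and 6.02 FPKM. The trehalose phosphate synthase genes TPS8, TPS9, TPS10 and TPS11 fell by 2.65, 2.00, 1.29 and 2.31 on the log2 scale. BCAT2, of branched-chain amino acid breakdown, fell from 51.8, 22.5 and 57.1 FPKM to 9.41, 10.1 and 9.97 FPKM, and BZIP53 by 1.00. DIN9 overlapped between the times, with 3.21, 1.86 and 4.13 FPKM and then 4.44, 3.54 and 4.02 FPKM.

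In starch synthesis 5 of 14 genes went up and 2 went down, and rescaling gave 9 up and 0 down. Over all tested genes 8.1% went up and 25.5% down, or 14.2% and 9.53% after rescaling. GBSS1, the granule-bound synthase that makes amylose, went from 58.3, 61.8 and 73.1 FPKM to 829, 1062 and 908 FPKM (log2 change 3.83 ± 0.47, adjusted p = 3.73e-05). SS2 and APL3 rose by 1.15 and 1.07. In starch breakdown 2 of 16 rose and 4 fell as deposited, while 5 rose and 2 fell after rescaling. The counts as deposited are near the shares over all genes, 8.1% higher and 25.5% lower. The lower calls were also 2 without ZT21 library 2. BAM3, a chloroplast beta-amylase of leaf starch, rose from 378, 520.1 and 345 FPKM to 989.7, 1100.4 and 943 FPKM, and PWD, the kinase that primes starch granules for breakdown, fell from 52.9, 67.5 and 50.1 FPKM to 23.0, 27.9 and 21.6 FPKM. BAM4 fell by 0.85 and AMY3 rose by 0.73. The AMY3 call was lost with a pseudocount of 5 (adjusted p = 0.0569) and with the spread of the 6 libraries alone (0.0534), which left 1 higher call. In starch synthesis the transcript of the highest mean alone gave 3 higher calls.

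Of 12 genes of nitrate and ammonium assimilation, 4 rose and 1 fell (8.1% and 25.5% over all tested genes). Beside BT1, the higher genes were NIA1, a nitrate reductase at 5.96, 11.3 and 7.89 FPKM and then at 13.8, 12.3 and 26.7 FPKM, the nitrite reductase gene NIR1, and LBD37, a repressor of nitrate genes, at 41.3, 62.6 and 56.0 FPKM and then at 77.2, 101 and 185 FPKM. In NIA1, NIR1 and LBD37 ZT1 library 3 was the highest. Their adjusted p were 0.0226, 0.0434 and 0.031, and that of NIR1 was 0.0501 with the batch number as a block. Each of the 3 calls was lost without ZT1 library 3, ZT21 library 1 or ZT21 library 3, with adjusted p up to 0.170, so the count of higher genes came down to 1 there and to 2 without ZT1 library 2. All 3 calls were also lost with the spread of the 6 libraries alone (adjusted p up to 0.108), and those of NIR1 and LBD37 with no filter on low values (0.068 and 0.0511). BT2, a relative of BT1, was the 1 gene called lower, from 2.06, 6.58 and 12.9 FPKM to 0.545, 0.327 and 0.513 FPKM, and with a pseudocount of 5 there was 0.

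Of 9 tested senescence genes 4 fell, 1 rose and 4 were not called, with a median of −0.97, where 25.5% of all tested genes fell. ORE1, a NAC factor that promotes leaf senescence, fell from 119, 84.9 and 128 FPKM to 24.4, 25.4 and 22.0 FPKM, and its relative ORS1 from 51.2, 40.6 and 67.4 FPKM to 7.18, 12.8 and 15.9 FPKM. SAG21 was at 1228, 1032 and 1312 FPKM and then at 453, 107 and 103 FPKM, with ZT1 library 1 well above the other ZT1 libraries and still below ZT21. SAG20 fell by 1.07, and SWEET15, a sugar exporter of senescing leaves, rose from 0.369, 0.885 and 0.378 FPKM to 3.27, 8.86 and 6.24 FPKM. Of the ATG8 genes, whose proteins coat autophagosomes, 7 of 9 fell and 0 rose. After rescaling 3 fell, where 9.53% of all tested genes fell. ATG8E fell from 164, 128 and 207 FPKM to 32.7, 28.2 and 40.2 FPKM, ATG8H by 1.11 and ATG8D by 0.81. In chlorophyll breakdown 2 of 9 genes rose, CLH1 by 1.32 and RCCR by 0.81, and 1 fell, which was lost without ZT21 library 3 and became 2 without ZT21 library 2.

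Defence genes varied widely between libraries of 1 group. The 14 tested genes of salicylic acid and defence had a median of −0.99, and 0 were called. Over all tested genes 33.6% were called, 8.1% higher and 25.5% lower. PR1, a marker of salicylic acid responses, was at 874, 102 and 800.0 FPKM at ZT21 and at 691, 22.3 and 37.7 FPKM at ZT1. ZT1 library 1 stood with the high ZT21 libraries, ZT21 library 2 with the low ZT1 ones, and the groups overlapped. The summed level of the list ran from 478 to 4021 FPKM at ZT1 and from 2318 to 3358 FPKM at ZT21. Without ZT1 library 1 there were 2 lower calls, and with libraries weighted by their spread there were 7. In these settings 5114 and 7502 of the 18729 tested genes were called lower.

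In the abscisic acid list 3 of 19 rose and 1 fell (8.1% and 25.5% over all tested genes). With the batch number as a block 7 rose, and after rescaling 10 rose, where 14.2% of all tested genes rose. HAI1, a phosphatase that damps abscisic acid signalling, rose from 6.83, 12.2 and 9.56 FPKM to 51.3, 95.6 and 29.1 FPKM, a call lost without ZT1 library 2 (adjusted p = 0.0594). CYP707A3, which breaks abscisic acid down, fell by 0.84. It was the 1 lower gene, there were 2 without ZT21 library 2 or with the spread of all 36 libraries, and there were 0 with the transcript of the highest mean alone (adjusted p of CYP707A3 0.0695). In the jasmonate list 2 of 22 rose, MYC2 and CORI3, and 2 fell. MYC2, a master factor of jasmonate responses, was at 48.2, 37.9 and 34.8 FPKM and then at 62.3, 86.4 and 57.8 FPKM. Both higher calls were lost without ZT1 library 2 or ZT21 library 3, with adjusted p up to 0.102, and CORI3 also without ZT21 library 1 or with the spread of the 6 libraries alone (0.0506). The lower calls came down to 0 without ZT1 library 3 or ZT21 library 1, with that spread or after rescaling, and to 1 with no filter or without ZT1 library 2 or ZT21 library 3. In the cold list 3 of 10 rose and 2 fell, with 0 higher calls without ZT1 library 2 or ZT21 library 3, 1 without ZT1 library 3 or ZT21 library 1, and 1 lower call without ZT21 library 3. Of 9 tested heat shock genes 1 rose and 2 fell, and the higher count ran from 0 without ZT21 library 3 to 3 without ZT1 library 3. The 2 lower heat shock calls became 1 without ZT21 library 1 or 3. Over all tested genes 33.6% were called, 8.1% higher and 25.5% lower, or 14.2% higher and 9.53% lower after rescaling.

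The lists that follow stand against 8.1% higher and 25.5% lower calls over all tested genes, or 14.2% and 9.53% after rescaling. The 14 genes of flavonoids and anthocyanins gave 1 higher and 0 lower calls. That gene was F3H, an enzyme early in flavonoid synthesis, at 7.26, 3.39 and 3.11 FPKM and then at 76.7, 112 and 101 FPKM, and its call was lost without ZT21 library 3 (adjusted p = 0.0558). With the batch number as a block, or without ZT1 library 1, 2 genes of the list rose. In ribosome biogenesis 4 of 10 genes fell and 0 rose, NOP58-1 among them from 40.6, 29.7 and 33.1 FPKM to 22.0, 15.9 and 19.0 FPKM, with 1 lower after rescaling, 2 without ZT1 library 2 or ZT21 library 3, and 7 without ZT21 library 2. Of 8 reference genes 3 fell, with ACT2, a vegetative actin, at 703, 817 and 844 FPKM and then at 379.7, 410.1 and 394 FPKM, and after rescaling ACT2 was the 1 that fell. Among cell type markers there were 1 of 4 tested epidermis genes higher (ATML1), and 2 of 6 guard cell genes, 2 of 5 phloem genes and 0 of 4 xylem genes lower. FAMA fell by 0.79 and the sucrose exporter gene SWEET12 by 1.61 on the log2 scale. Both counts of 2 became 1 without ZT1 library 3 or ZT21 library 3, and the phloem count also without ZT21 library 1. Their summed levels ran from 64.3 to 72.9 FPKM (guard cell) and from 758 to 1171 FPKM (phloem) at ZT1, and from 63.3 to 68.5 and from 1256 to 1336 FPKM at ZT21. In lists this small, the lower counts of ribosome biogenesis, reference, guard cell and phloem genes lay not far from the 25.5% over all tested genes. The part of cell type shares in the other results was not tested.

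**Figure D3:**
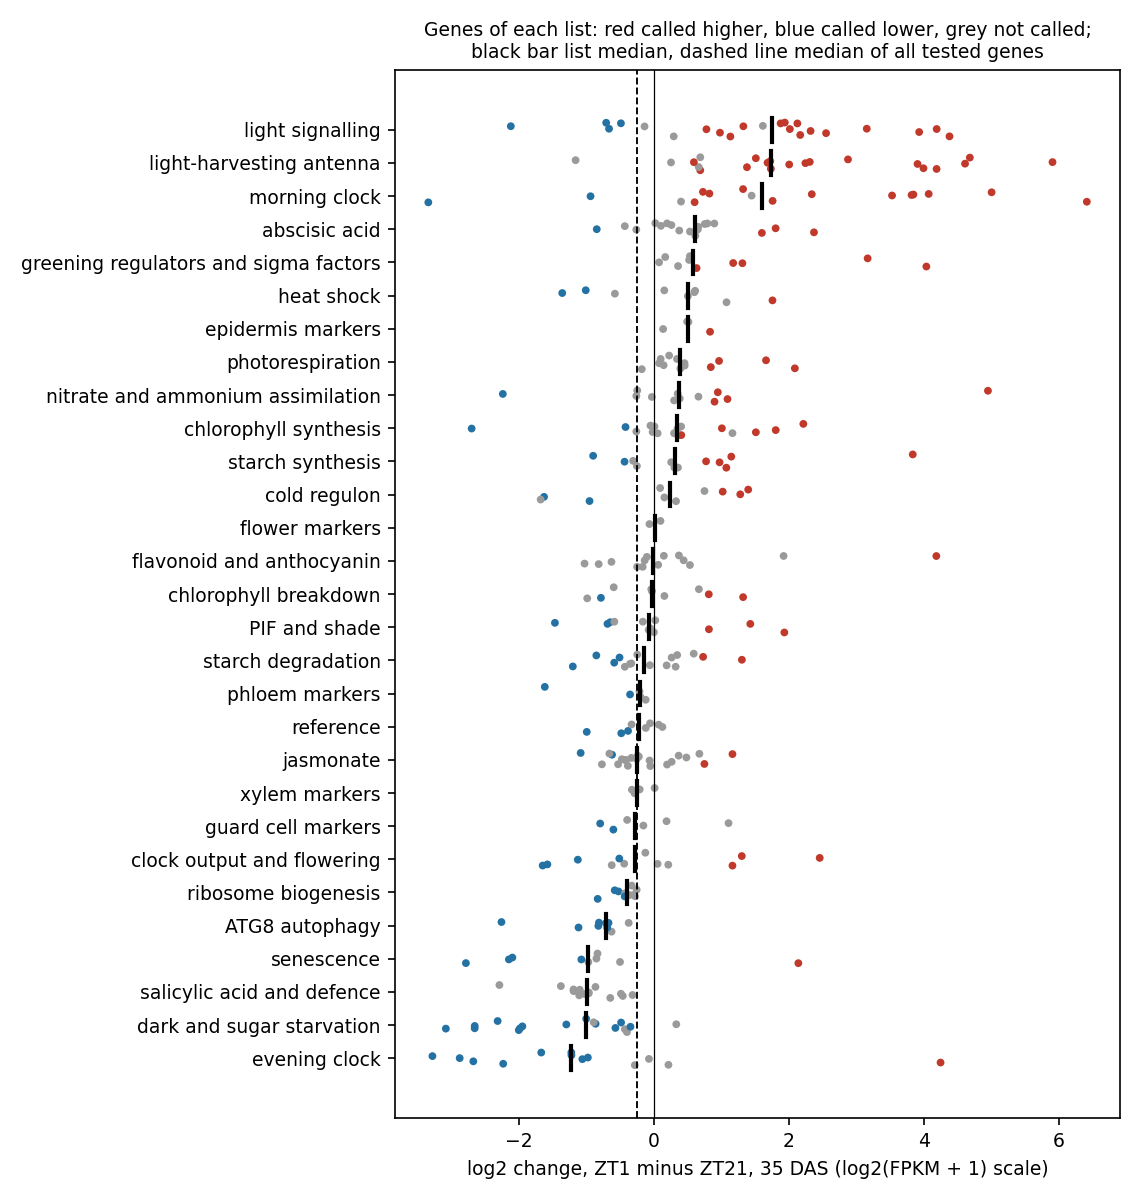
log2 change from ZT21 to ZT1 at 35 DAS of each tested gene of the 29 lists, with lists ordered by their median (black bars) and the median of all tested genes as a dashed line at −0.25. Light signalling, antenna and morning clock genes lie furthest to the right with medians of 1.75, 1.73 and 1.60, and evening clock and starvation genes furthest to the left at −1.22 and −1.0003.

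The same change was measured at 21 DAS with no library in common. There 10889 genes changed (58.1%), 2407 higher (12.9%) and 8482 lower (45.3%), with a median of −0.27. The median SE of a gene's change was 0.127 at 21 DAS and 0.185 at 35 DAS. With 1 spread taken from all 36 libraries, 9043 genes were called at 21 DAS and 8451 at 35 DAS. Both ages called 4848 genes in the same direction, which is 77.1% of the genes called at 35 DAS and 44.5% of those called at 21 DAS. In opposite directions there were 88, of which 50 were higher at 35 DAS and lower at 21 DAS. Across the tested genes, which are not independent replicates, the changes at the 2 ages had a Pearson r of 0.697.

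The difference between the ages was tested on all 36 libraries. It was called for 1524 genes (8.14%), with the change at 35 DAS more positive for 963 (5.14%) and more negative for 561 (3.0%), or for 829 (4.43%) and 842 (4.5%) after rescaling. Of these 1524 genes, 290 changed at 35 DAS alone by the calls, 767 at 21 DAS alone, 455 at both ages and 12 at neither.

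**Figure D4:**
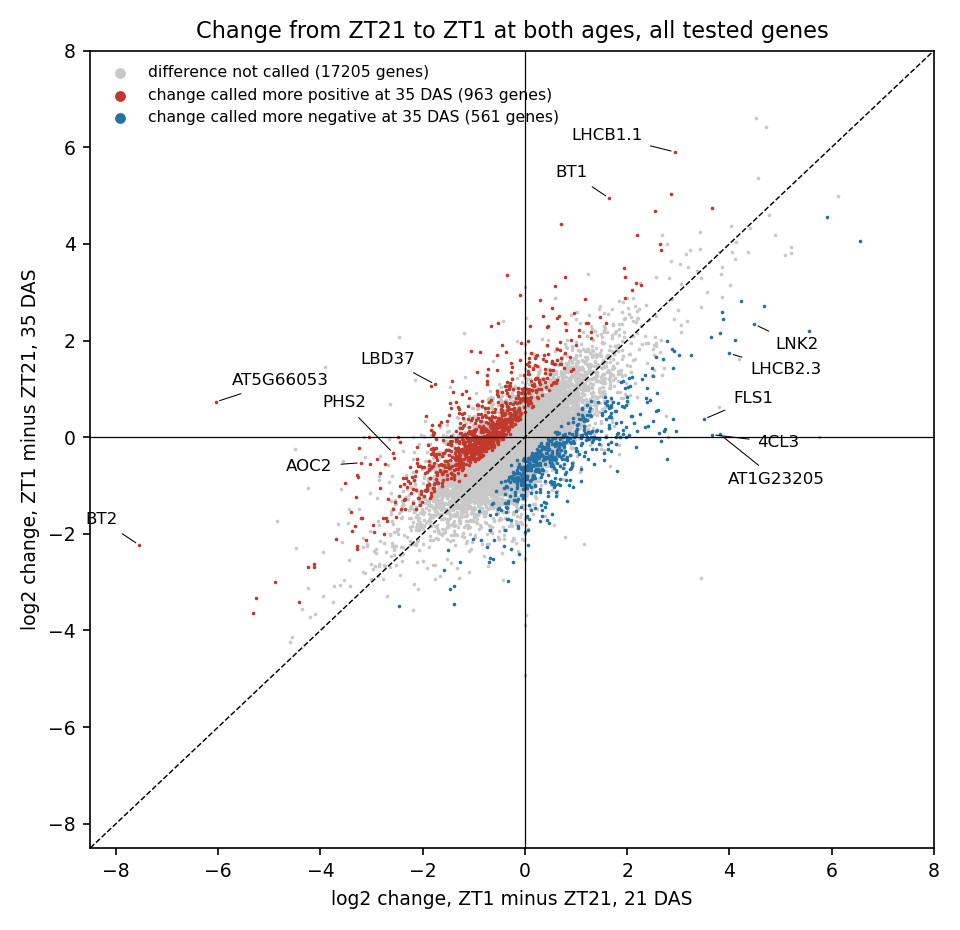
log2 change from ZT21 to ZT1 at 21 DAS (x axis) and at 35 DAS (y axis) for all 18729 tested genes, with the dashed line of equal change. The 963 red and 561 blue genes are those whose change differed between the ages, among them BT2, BT1 and LHCB1.1 above the line and LNK2, LHCB2.3 and FLS1 below it.

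The genes with the highest differences were BT2 and BT1 and several without a symbol. BT2 fell at 21 DAS from 256, 308 and 278 FPKM to 1.02, 0.289 and 0.311 FPKM, while at 35 DAS it began far lower, as given above. The log2 change was −7.54 ± 0.22 at 21 DAS and −2.23 ± 0.57 at 35 DAS, a difference of 5.31 ± 0.63 (adjusted p = 4.82e-06). BT1 overlapped between the ages at ZT1, with 197, 159.9 and 188 FPKM at 21 DAS, and was higher before dawn at 21 DAS, at 58.3, 58.1 and 54.3 FPKM. Its difference was 3.30 ± 0.40 (adjusted p = 7.97e-06).

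AT4G29905 had 267, 218 and 249 FPKM at ZT21 and 182, 186 and 203 FPKM at ZT1 at 21 DAS, and went from 5.62, 42.5 and 12.5 FPKM to 139, 175 and 172 FPKM at 35 DAS. AT4G16880, a leucine-rich repeat gene, rose at 35 DAS from 1.53, 4.65 and 0.775 FPKM to 15.8, 21.4 and 30.2 FPKM and had overlapping groups at 21 DAS. AT1G70820, a putative phosphoglucomutase, fell at 21 DAS from 23.7, 31.9 and 29.3 FPKM to 1.91, 2.06 and 2.26 FPKM and overlapped at 35 DAS. AT4G34790, the auxin-responsive SAUR3, fell at 21 DAS from 8.55, 8.48 and 10.3 FPKM to 0, 0.485 and 0.226 FPKM and was listed at 0 in all 6 libraries of 35 DAS. AT2G16367 had 3.66, 1.87 and 2.66 FPKM and then 3.82, 5.15 and 6.09 FPKM at 21 DAS, and its difference of 3.72 ± 1.18 lost its call without any 1 of 11 of the 12 libraries left out in turn. AT5G66053, which overlaps AT5G66052, was listed at 0 in ZT1 libraries 2 and 3 of 21 DAS and at 200.1 FPKM in library 1. Its difference of 6.78 ± 1.82 was lost without either of those 2 libraries (adjusted p up to 0.0729).

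Of the 8 lowest differences, 5 belonged to genes that rose at 21 DAS and stood at or below 3.01 FPKM in every ZT1 and ZT21 library of 35 DAS. FLS1, a flavonol synthase, went from 1.56, 4.36 and 3.55 FPKM to 37.7, 44.2 and 50.7 FPKM at 21 DAS and was at 0.369, 0.197 and 0.599 FPKM at ZT1 at 35 DAS. 4CL3, a ligase that feeds flavonoid synthesis, went from 2.28, 4.55 and 4.26 FPKM to 50.4, 55.8 and 64.5 FPKM at 21 DAS and stayed at or below 0.372 FPKM in the 6 libraries of 35 DAS. Their differences were −3.13 ± 0.40 and −3.60 ± 0.74 (adjusted p = 1.65e-05 and 0.00253), and both lost their calls with a pseudocount of 0.1 (0.0871 and 0.107). The same shape was seen in 2 genes of pectin-related families, AT1G23205 (70.6, 81.4 and 118 FPKM at ZT1 of 21 DAS) and AT1G60590 (87.3, 64.4 and 95.8 FPKM), and in SCPL24, a serine carboxypeptidase-like gene that overlaps AT4G30620 (30.1, 29.3 and 43.8 FPKM).

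AT1G55960, of a lipid transport family, rose at both ages, from 25.6, 14.5 and 16.9 FPKM to 860.2, 1023 and 888 FPKM at 21 DAS and from 38.0, 33.6 and 45.7 FPKM to 152, 169 and 233 FPKM at 35 DAS. AT1G06002, a long non-coding RNA antisense to AT1G06000, rose at 21 DAS from 8.53, 5.47 and 7.47 FPKM to 46.9, 62.9 and 53.6 FPKM and overlapped at 35 DAS, and without strand information its reads and those of AT1G06000 cannot be told apart. PUP18, a purine permease, fell at 35 DAS alone by the calls, from 65.4, 28.2 and 47.2 FPKM to 10.7, 2.24 and 4.16 FPKM.

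Within the lists, starch breakdown and nitrate assimilation held the most differences, 8 of 16 and 8 of 12 genes, all of them more positive at 35 DAS. Over all tested genes 5.14% had a more positive called difference. PHS2, a cytosolic glucan phosphorylase, fell at 21 DAS from 49.8, 60.9 and 55.1 FPKM to 7.72, 9.12 and 8.52 FPKM and overlapped at 35 DAS, with 49.99, 85.1 and 47.1 FPKM and then 34.2, 60.01 and 48.3 FPKM (difference 2.24 ± 0.29, adjusted p = 2.02e-05). SEX4, a glucan phosphatase, and ISA3, a debranching enzyme, likewise fell at 21 DAS by 1.83 and 1.78 and were not called at 35 DAS. The starch breakdown list as a whole had 3 higher and 11 lower genes at 21 DAS, against 2 and 4 at 35 DAS. Lower calls over all tested genes were also more frequent at 21 DAS, at 45.3% against 25.5%.

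LBD37 fell at 21 DAS from 162, 147 and 138 FPKM to 39.1, 58.5 and 35.98 FPKM, against its rise at 35 DAS (difference 2.84 ± 0.42, adjusted p = 7.26e-05). NIA1 fell at 21 DAS by 1.15 and NIA2 by 0.93, with differences of 2.101 ± 0.42 and 1.60 ± 0.35. The nitrate list had 1 higher and 9 lower genes at 21 DAS, against 4 and 1 at 35 DAS. Of all tested genes 45.3% were lower at 21 DAS and 25.5% at 35 DAS. AOC2, an allene oxide cyclase of jasmonate synthesis, fell at 21 DAS from 222, 166 and 139 FPKM to 17.0, 20.8 and 16.2 FPKM and overlapped at 35 DAS (difference 2.67 ± 0.40).

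In the antenna 5 of 21 genes had a more positive change at 35 DAS and 1 a more negative one (5.14% and 3.0% over all tested genes). LHCB1.1 rose at 21 DAS from 541, 576 and 624 FPKM to 4558, 3797 and 5109 FPKM, so its levels were higher at both times in younger leaves and its log2 rise of 2.94 ± 0.34 was smaller (difference 2.96 ± 0.64, adjusted p = 0.00403). LHCB2.3 was the exception, from 47.5, 65.1 and 77.4 FPKM to 891, 962 and 1194 FPKM at 21 DAS and with a difference of −2.26 ± 0.40. Reads may have been split between LHCB1.1 and its near-identical copies, so its levels and its difference between the ages are uncertain.

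All 24 clock genes called at both ages had 1 direction at both. At 21 DAS 13 of 16 morning genes rose and 2 fell, and 1 of 13 evening genes rose and 11 fell. Over all tested genes 12.9% rose and 45.3% fell at that age. The difference between ages was called for 4 morning genes and 2 evening genes, where it was called for 8.14% of all tested genes. LNK2 began lower at 21 DAS, at 11.4, 11.7 and 12.9 FPKM, and reached 273, 308 and 290.0 FPKM, so its rise was larger there (difference −2.15 ± 0.42, adjusted p = 0.00153). RVE2 fell from 655, 709 and 742 FPKM to 17.7, 12.6 and 23.6 FPKM at 21 DAS, a larger fall than at 35 DAS (difference 1.92 ± 0.37). PRR9 stood at 29.7, 23.5 and 23.3 FPKM at ZT1 of 21 DAS and was listed at 0 at ZT21, and its difference of 1.69 ± 0.61 was not called (adjusted p = 0.0821). GI, also listed at 0 at ZT21 of 21 DAS, had an uncalled difference of 0.83 ± 0.30 (adjusted p = 0.0834), which was called with the batch number as a block (adjusted p = 0.0456).

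CDF2 rose at 21 DAS from 11.9, 7.86 and 10.6 FPKM to 14.9, 17.1 and 15.1 FPKM and fell at 35 DAS (difference −1.73 ± 0.27, adjusted p = 0.000144). BBX24 and PIF5 rose more at 21 DAS, with differences of −2.09 ± 0.30 and −1.48 ± 0.29. For both, the ZT21 level at 21 DAS was below that at 35 DAS in every library, for BBX24 at 27.4, 15.8 and 20.3 FPKM. DIN9 rose at 21 DAS from 1.24, 1.00 and 1.395 FPKM to 10.7, 11.1 and 13.1 FPKM (difference −2.18 ± 0.32). Of the 14 flavonoid genes 8 rose at 21 DAS, where 12.9% of all tested genes rose. The change differed between the ages for 2 of the 14, both more negative at 35 DAS (3.0% over all tested genes).

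**Figure D5:**
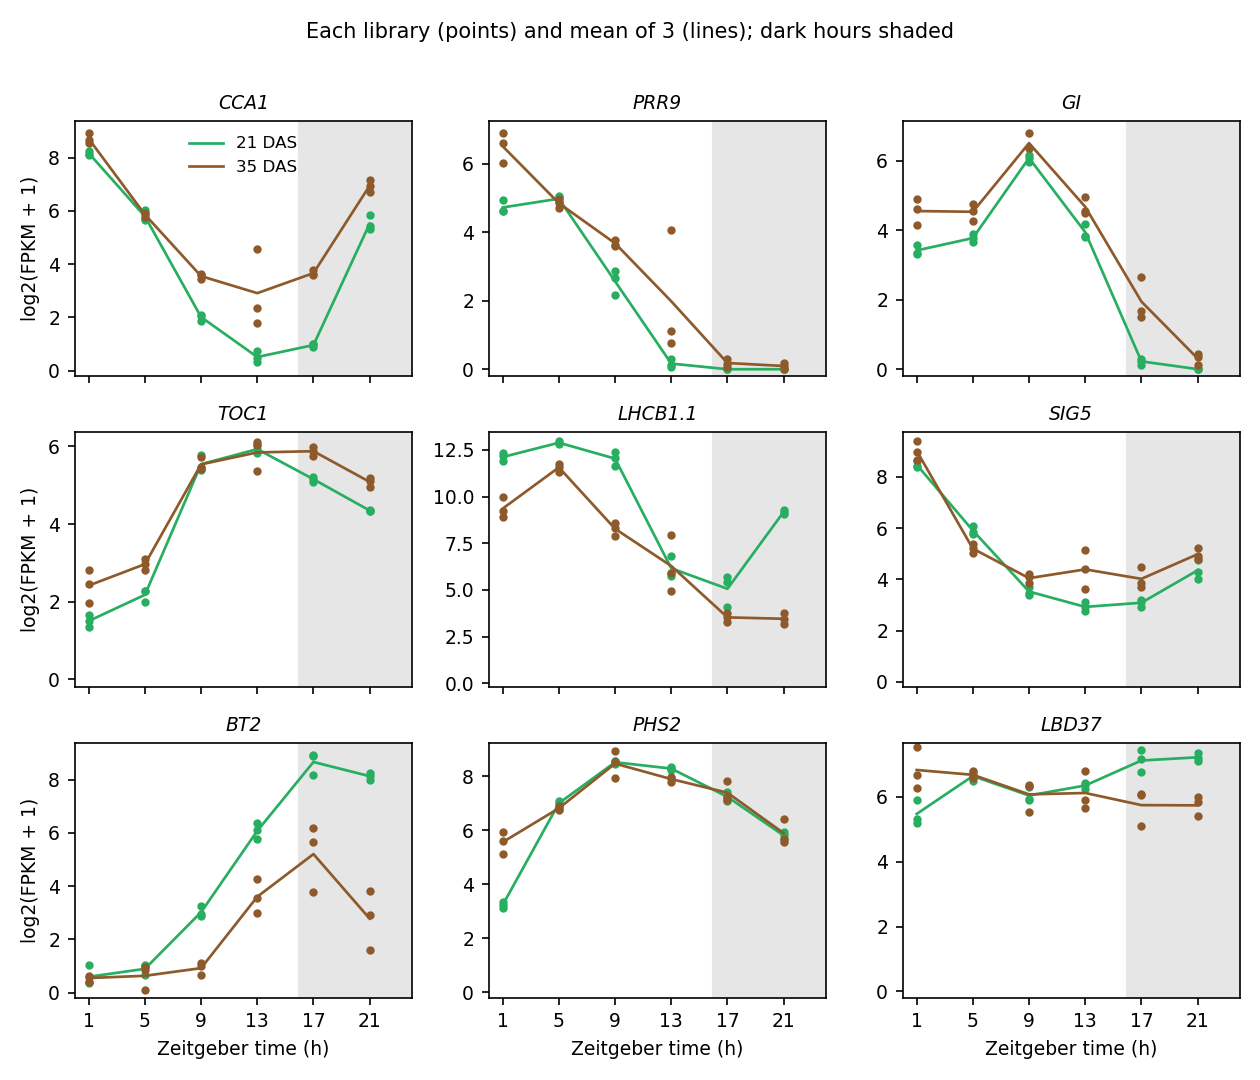
log2(FPKM + 1) of 9 genes at the 6 times of day for 21 DAS (green) and 35 DAS (brown), with points for libraries, lines for means of 3 and the dark hours from ZT16 shaded. Libraries of 35 DAS lie above those of 21 DAS at both ZT1 and ZT21 in CCA1, GI, TOC1 and SIG5 and below them in LHCB1.1, while BT2 lies lower at ZT21, PHS2 higher at ZT1, and LBD37 higher at ZT1 and lower at ZT21.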

How the data were processed

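Polyadenylated RNA was sequenced from 36 libraries in 12 groups of 3. Transcript FPKM values were deposited by the authors in 1 table of 41342 transcripts of 33279 loci, per the file headers. The submitters' processing notes name STAR 2.3.0e, HTSeq, edgeR 3.12.1 and TAIR10, and the step from reads to FPKM is not given in the sources used here. Depth per library is not stated in the table, so no counting error or detection limit was computed. FPKM reports each gene as a share of its library, so a large rise of some genes lowers all others.

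FPKM was summed over the transcripts of a locus. Genes with 1 FPKM in at least 3 libraries (18729) were kept, and log2 values with a pseudocount of 1 were computed from the deposited FPKM. They were fitted by group with limma 3.58.1 in R 4.3.3 (limma-trend, Benjamini-Hochberg over all tested genes, called under an adjusted p of 0.05). The change at 35 DAS used the 18 libraries of that age, the change at 21 DAS the other 18, and the difference all 36. These tests are two-sided, and exact permutation of 3 against 3 libraries could not go below p = 0.1.

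In data simulated for 18729 genes, the test of the change at 35 DAS recovered 78% of 100 genes changed by a log2 size of 1 and 96% at a size of 2, with 6 false calls. For the difference these shares were 66% and 94%. Only genes above a minimum mean level were changed and all others were simulated flat, while 33.6% of genes were called in the data. The shares and false calls therefore describe that setting and not the power of the tests on the data.

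Named genes are the 12 highest and 12 lowest called changes without overlap and with 5 FPKM in the higher group, the 8 highest and 8 lowest called differences with 5 FPKM in 1 group, and members of 29 gene lists (367 members, 349 tested). Members and lists were chosen with earlier results of these data known. Titles number libraries as batches 1 to 3. The main fits used no pairing, and the numbers were taken as pairs only in the alternative with the batch number as a block. Deviations from group means of same-numbered ZT1 and ZT21 libraries at 35 DAS had r of 0.447, 0.0744 and 0.0106. ZT1 library 2 correlated best with ZT21 library 3, and ZT1 library 3 with ZT21 library 2. Loci overlapped the RefSeq TAIR10.1 annotation in 99.997% of 32815 compared, and promoters were read from that genome. Alternatives were other pseudocounts and filters, median-of-ratios rescaling, the transcript with the highest mean, the batch number as a block, other pools of libraries for the spread, array weights (limma's weighting of libraries by their spread) and each library left out in turn.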

Additional observations from a re-analysis of the deposited data

Results flagged for a closer look

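The results given here had a change from ZT21 to ZT1 that differed between 35 and 21 DAS by the test of the difference itself (limma, adjusted p under 0.05). Groups hold 3 libraries, too few to test for outlying ones. The difference was called for 1524 genes. Values are the log2 change at 35 DAS minus that at 21 DAS.

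Among the named genes with the highest differences were AT5G66053 (6.78), BT2 (5.31), AT4G29905 (3.72), AT2G16367 (3.72), BT1 (3.30), AT4G34790 (3.04), AT4G16880 (3.04) and AT1G70820 (3.01). The lowest were AT1G23205 (−3.75), 4CL3 (−3.60), AT1G55960 (−3.37), AT1G06002 (−3.23), FLS1 (−3.13), AT1G60590 (−2.82), SCPL24 (−2.74) and PUP18 (−2.64). With libraries left out in turn, AT2G16367 lost its call in 11 of 12 fits, with adjusted p up to 0.170. It also lost it with a pseudocount of 0.1 (adjusted p = 0.145), and AT5G66053 lost its own without 21 DAS ZT1 library 2 or 3.

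Of the clock and its outputs, RVE2 (1.92), ELF4 (1.52), PRR5 (0.90) and GRP7 (0.87) had more positive changes at 35 DAS. RVE6 (−0.70), LNK2 (−2.15), LNK4 (−2.49), CDF2 (−1.73) and CDF3 (−1.41) had more negative ones. LNK4 lost its call in 11 and RVE6 in 7 of the 12 fits with a library left out, with adjusted p up to 0.150 and 0.130, and RVE6 also with the batch number as a block (0.0559). PRR5 lost its own in 3 fits, without ZT1 library 2 or ZT21 library 1 of 35 DAS or ZT21 library 2 of 21 DAS (up to 0.0581). CDF3 lost its call without ZT21 library 3 of 35 DAS (0.0748) and GRP7 without ZT1 library 1 of 21 DAS (0.0573). ELF4, PRR5, CDF3, LNK4 and RVE6 were not called with a pseudocount of 5, and LNK2 (0.052), LNK4 (0.153) and RVE6 (0.0905) not with the transcript of the highest mean alone.

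In light signalling, SPA3 differed by 0.93, BBX24 by −2.09 and PIF5 by −1.48. SPA3 lost its call without ZT1 library 2 or ZT21 library 1 of 35 DAS, with adjusted p up to 0.0737. Among starvation genes, TPS10 differed by 1.08, DIN9 by −2.18, DIN10 by −1.69 and BZIP53 by −1.20, and DIN10 lost its call in 8 fits (up to 0.123). Starch breakdown genes all had more positive values, with SEX4 at 1.48, ISA3 at 1.53, DPE2 at 1.09, PHS1 at 1.41, PHS2 at 2.24 and AMY3 at 0.91. ISA3, AMY3, TPS10 and DIN10 were not called with a pseudocount of 5.

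For the antenna, LHCB1.1 differed by 2.96, LHCB1.2 by 2.13, LHCB1.5 by 2.00, LHCB2.3 by −2.26 and LHCB7 by 0.80. The values of LHCB1.1 and LHCB1.2 are uncertain, as reads may have been split between these near-identical copies. LHCB1.2 lost its call in 3 fits (up to 0.0764), without ZT1 library 3 or ZT21 library 1 of 35 DAS or ZT21 library 3 of 21 DAS, and LHCB7 without the last of these (0.055). Chlorophyll synthesis gave GUN4 (1.16), CRD1 (0.82) and PORB (1.54), and CRD1 lost its call without ZT21 library 1 of 35 DAS (0.0525). CAT2 of photorespiration differed by 1.02 and lost its call in 5 fits (up to 0.0733).

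Nitrogen genes had NIA1 at 2.101, NIA2 at 1.60, NIR1 at 1.44 and LBD37 at 2.84, and each of these 4 was called in all 12 fits with a library left out. Among hormone genes AOC2 differed by 2.67 and CORI3 by 2.59. RCCR of chlorophyll breakdown differed by 0.56, PP2AA3 of the reference genes by −0.33, and CER1, of cuticular wax synthesis, by −2.59. RCCR lost its call in 7 and PP2AA3 in 10 of the 12 fits, with adjusted p up to 0.0991 and 0.121. CER1 lost its own with a pseudocount of 0.1 (0.0753).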

How the results depend on the processing

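The 6285 calls at 35 DAS became 9907 with array weights and between 4394 and 6654 with 1 library left out. Higher calls were 2664 after rescaling and 2405 with array weights, and lower calls 1784 and 7502. At 21 DAS rescaling gave 4961 higher and 4381 lower calls. The difference between ages had 4119 calls with array weights, 2480 more positive and 1639 more negative, and 842 more negative after rescaling. With 1 library left out it had between 989 and 2002, between 623 and 1234 more positive and between 366 and 768 more negative, the lowest each time without ZT21 library 1 of 35 DAS. The cause of these moves was not tested, except that rescaling sets the median change at 0.

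With the batch number as a block there were 6089 calls at 35 DAS, 5905 of them among the 6285, 10812 at 21 DAS and 1511 for the difference. It ended the calls of NIR1 at 35 DAS and of RVE6 in the difference, and called that of GI. Gene by gene, calls were compared only for genes picked for mention in the text, 150 at 35 DAS and 56 in the difference. Of their other calls none changed with the block, while list members not picked could change. List counts at 35 DAS that moved by 1 with it were 16 higher antenna genes, 3 in photorespiration, 2 in PIF and shade, 3 in nitrate assimilation and 2 in flavonoids, and 12 lower starvation genes, 5 in starch breakdown, 3 in jasmonate and 1 in chlorophyll synthesis. Log2 changes at 35 DAS turned in sign for genes that were not called: LKP2 (0.0059), ISA3 (0.039) and CHE (0.19) after rescaling, CHE (0.038) and PHS2 (0.062) with array weights, and LHCB1.3, which ran from −0.10 to 0.45 with 1 library left out. Over the same 150 genes at 35 DAS and all settings other than left-out libraries, 1451 values kept direction and call, 21 lost the call, 22 gained it and 5 turned.

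The pseudocount of 0.1 gave 6242 calls at 35 DAS, that of 5 gave 6273, and spread from all 36 libraries or from the 6 alone gave 8451 and 4460. Depth is not stated, so changes of genes near 0 FPKM depend on the pseudocount and small changes on the scaling.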

Other observations

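Gene families outside the lists were grouped by words in the table's gene descriptions, after values had been seen, so their counts are descriptions. Over all tested genes 8.1% rose and 25.5% fell across dawn at 35 DAS, with a median log2 change of −0.25. After rescaling 14.2% rose and 9.53% fell. Aquaporins, the channels for water in membranes, leaned upward: 11 of 23 were higher at ZT1 and 1 lower, with a median of 0.56, and rescaling gave 12 and 0. Their summed level ran from 1879 to 2761 FPKM in the ZT21 libraries and from 3902 to 5248 FPKM in the ZT1 libraries of 35 DAS, without overlap. At 21 DAS 15 rose and 1 fell, where 12.9% of all tested genes rose and 45.3% fell. Genes described by a B-box zinc finger rose in 9 of 12 cases, and some of them are in the light signalling list. Of 13 CONSTANS-like genes 4 rose and 8 fell, so this family was split.

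WRKY transcription factors, many of them known from defence, gave 17 lower and 0 higher calls among 53 genes, with a median of −0.73. After rescaling there were 11 lower and 2 higher calls. Over all tested genes 25.5% were lower and 8.1% higher, or 9.53% and 14.2% after rescaling. The WRKY counts were not tested against these shares. Their sum ran from 586 to 1957 FPKM at ZT1 and from 1241 to 1971 FPKM at ZT21, and these ranges overlapped. Of the 4 dormancy-associated genes 3 fell, with a median of −2.70.

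Of 279 ribosomal protein genes 36 fell and 3 rose at 35 DAS, where 25.5% of all tested genes fell and 8.1% rose. At 21 DAS 186 fell and 2 rose, where 45.3% of all tested genes fell and 12.9% rose. After rescaling 2 fell and 7 rose at 35 DAS (9.53% and 14.2% over all tested genes). At 21 DAS 77 then fell and 51 rose, where 4381 and 4961 of all 18729 tested genes did. The difference between the ages was called for 17 of them, all more positive at 35 DAS. Of 24 proteasome subunit genes 2 fell at 35 DAS and 22 at 21 DAS, with 5 called differences, again all more positive at 35 DAS. Over all tested genes 5.14% had a more positive called difference, and the family counts were not tested against that share. Pentatricopeptide repeat genes, which act on organelle RNA, had 75 lower and 14 higher calls among 377 at 35 DAS (25.5% and 8.1% over all tested genes). After rescaling there were 23 lower and 28 higher calls (9.53% and 14.2% over all tested genes).

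AT2G01021 stood at 27856 FPKM in ZT21 library 3 of 35 DAS and was listed at 0 in the other 5 libraries of the comparison. Elsewhere it was above 0 only in ZT13 library 2 (28196.5 FPKM) and ZT17 library 3 (36327 FPKM) of 35 DAS and in ZT17 library 1 of 21 DAS (74542.5 FPKM). The summed FPKM of a library includes it.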
